A study of Mus musculus with 13 samples.

Results

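The genes described here are 36 mouse genes for chaperones, their co-chaperones and the heat shock transcription factors that act in the cytosol, the nucleus and the mitochondria, outside the endoplasmic reticulum. They were taken by symbol from a written list, which was chosen with earlier results of these data known. Counts of members that changed therefore describe this list only. All 36 were found among the 23336 gene symbols with a count in every library, and all 36 passed the filter on low counts. They fall into 9 roles, from the 8 subunits of the CCT ring to the single small heat shock protein Hspb1.

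RNA-seq read counts were analysed for 13 libraries of primary mouse splenic B cells, prepared by negative selection with CD43 beads. Deficient cells were Regnase-1 f/f hCD20TamCre and control cells were Regnase-1+/+ hCD20TamCre, so both genotypes carried the transgene, a Cre recombinase driven by human CD20 sequence that tamoxifen activates in B cells. Untreated naive cells gave 4 control and 3 deficient libraries. Cells treated for 4 h with anti-IgM F(ab')2, an antibody fragment that crosslinks the B cell receptor (BCR), gave 3 control and 3 deficient libraries. The labels read here give no age, strain background or tamoxifen regimen. Read from Xist and the Y-linked Ddx3y, control number 1 and deficient numbers 2 and 3 were male in both states and all other libraries female, so sex is unevenly spread over the genotypes. No culture time is labelled for the untreated cells, so BCR stimulation and 4 h in culture cannot be told apart. The labels number the libraries without saying that each number is a separate animal, so p-values measure the spread between these samples, which may in part be technical.

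Library totals ran from 21407724 to 33244755 counts, and 3 counts, the limit that a count of 0 allows for counting error only, corresponded to 0.0902 to 0.14 CPM (counts scaled to library size with TMM factors). Zc3h12a, the gene for Regnase-1, lay at 121 to 131 CPM in control and 89.2 to 111 CPM in deficient unstimulated libraries, and at 147 to 157 and 92.6 to 113 CPM after stimulation. Every deficient library lay below every control library of the same state, by a log2 difference of -0.32 ± 0.07 (SE, edgeR adjusted p = 0.106) unstimulated and -0.58 ± 0.08 (edgeR adjusted p = 7.8e-04) stimulated. The counts cover the whole gene, the labels do not name the deleted exons, and reads outside a deleted exon check nothing. All 10 B cell markers were present, with a summed level of 13969 to 18490 CPM in unstimulated and 9472 to 12113 CPM in stimulated libraries. Both libraries of deficient number 1 stood apart, with 6 erythroid markers at 1050 and 950 CPM in sum against 103 to 671 CPM in the other 11 libraries, and with the adult alpha-globin rows Hba-a1 and Hba-a2 at 0 in every library.

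Chaperones bind proteins that are not yet, or no longer, folded. HSP70 proteins hold short exposed stretches in an ATP-driven cycle that J-proteins start and nucleotide exchange factors end. HSP90 and its co-chaperones finish the folding of kinases and steroid receptors, prefoldin passes actin and tubulin chains to the closed chamber of the CCT ring, and HSP60 with its lid HSP10 folds proteins imported into mitochondria. Many of these genes are also induced by heat through HSF1, which binds inverted repeats of the letters GAA and TTC, and resting lymphocytes that enter growth are known to raise protein synthesis.

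Promoter windows of 300 bases, 250 before and 50 after the RefSeq start site (GRCm38.p6), were matched for 30 of the 36 genes. The paired repeat GAANNTTC or TTCNNGAA, each of which reads the same on both strands and may overlap the other, was present in 14 of the 30 (46.7%), against 17% of the 27025 genes in the table. Runs of 3 units, GAANNTTC followed by NNGAA or its reverse complement TTCNNGAA followed by NNTTC, were present in 5 of 30 (16.7%), against 0.662% of genes, namely Hspd1, Hspe1, Hsph1, Chordc1 and Dnajb6. Hspd1 and Hspe1 hold the same stretch read from opposite strands, and it is counted for both. Hspa1a and Hspa1b, whose windows agree at 296 of 300 bases, are both counted among the 14. The E-box CACGTG was present in 3 of 30 (Hsf2, Hspd1 and Hsph1), against 8.09% of genes. These matches describe letters in the windows and do not show binding.

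Upstream stretches are given below for 3 genes of different roles whose windows hold paired repeats, which are in capitals. The Hspe1 stretch (chr1:55088053-55088082, plus strand) lies between the Hspe1 start site and the farther of the Hspd1 start sites, where it is also annotated as exon, and holds a run of overlapping repeats that begins 89 bases before the Hspe1 start site. Hspa1a (chr17:34972157-34972406, minus strand) has a single repeat 104 bases before its start site, and Hspb1 (chr5:135887669-135887918, plus strand) has repeats 117 and 97 bases before its own.
Hspe1: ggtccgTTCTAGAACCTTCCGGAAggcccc
Hspa1a: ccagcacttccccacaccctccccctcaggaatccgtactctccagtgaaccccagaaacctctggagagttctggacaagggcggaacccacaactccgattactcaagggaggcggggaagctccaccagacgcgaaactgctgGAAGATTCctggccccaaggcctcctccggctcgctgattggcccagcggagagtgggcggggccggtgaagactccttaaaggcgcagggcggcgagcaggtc
Hspb1: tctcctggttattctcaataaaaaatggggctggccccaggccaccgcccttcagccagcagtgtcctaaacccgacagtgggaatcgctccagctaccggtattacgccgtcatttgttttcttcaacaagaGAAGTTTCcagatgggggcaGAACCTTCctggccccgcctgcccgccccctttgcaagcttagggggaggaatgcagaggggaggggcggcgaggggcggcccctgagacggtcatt

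After 4 h of BCR stimulation nearly the whole set rose in both genotypes. In control cells 33 of 36 genes rose and 2 fell (Bag3 and Dnajb1), where 28.5% of the 13574 genes tested rose and 31.8% fell. Together 35 were called, against 60.3% of all genes, and Hspb1 was the member not called. In deficient cells 33 of 36 rose and 1 fell (Bag3), against 28.3% and 29.6% of all genes (57.9% in either direction), and Dnajb1 and Hspb1 were not called. The median log2 change of the set was 0.91 in each genotype, beside -0.13 over all genes in control and -0.11 in deficient cells. In bulk libraries, a change in the number of cells of a type and a change in RNA per cell cannot be told apart.

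Summed over the 36 genes, the unstimulated controls held 7960, 8868, 7894 and 7928 CPM and the stimulated controls 17133, 18368 and 16700 CPM. The sum was 7938, 8401 and 8188 CPM in deficient unstimulated and 16836, 16557 and 17791 CPM in deficient stimulated libraries. Every stimulated sum lay above every unstimulated sum, and the sums of the genotypes overlapped in both states. Control library 2 held the highest level of 34 of 36 genes among the unstimulated controls and of 29 of 36 among the stimulated controls. The share of all genes highest in that library was not computed, so a trait of the set and a general shift of the library cannot be told apart.

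Groups did not overlap for 35 of the 36 genes in control cells, 33 higher and 2 lower after stimulation, beside 29.7% and 33.8% of all genes (63.5% together). In deficient cells 32 lay higher and 1 lower without overlap, beside 30.1% and 31.9% of all genes (62.0% together). Unstimulated and stimulated libraries that carried the same number within a genotype behaved as pairs. In 6 of 6 pairs 33 genes were higher after stimulation, and 2 were lower in 6 of 6. The share of all genes that did so was not computed, so this count is not read as a trait of the set. Rises of more than 2-fold were called for 14 of 36 genes in control and 11 of 36 in deficient cells, where 10.1% and 9.78% of all genes rose as much. Hspd1 and Hspa9 exceeded 3-fold in both genotypes.

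**Figure D1:**
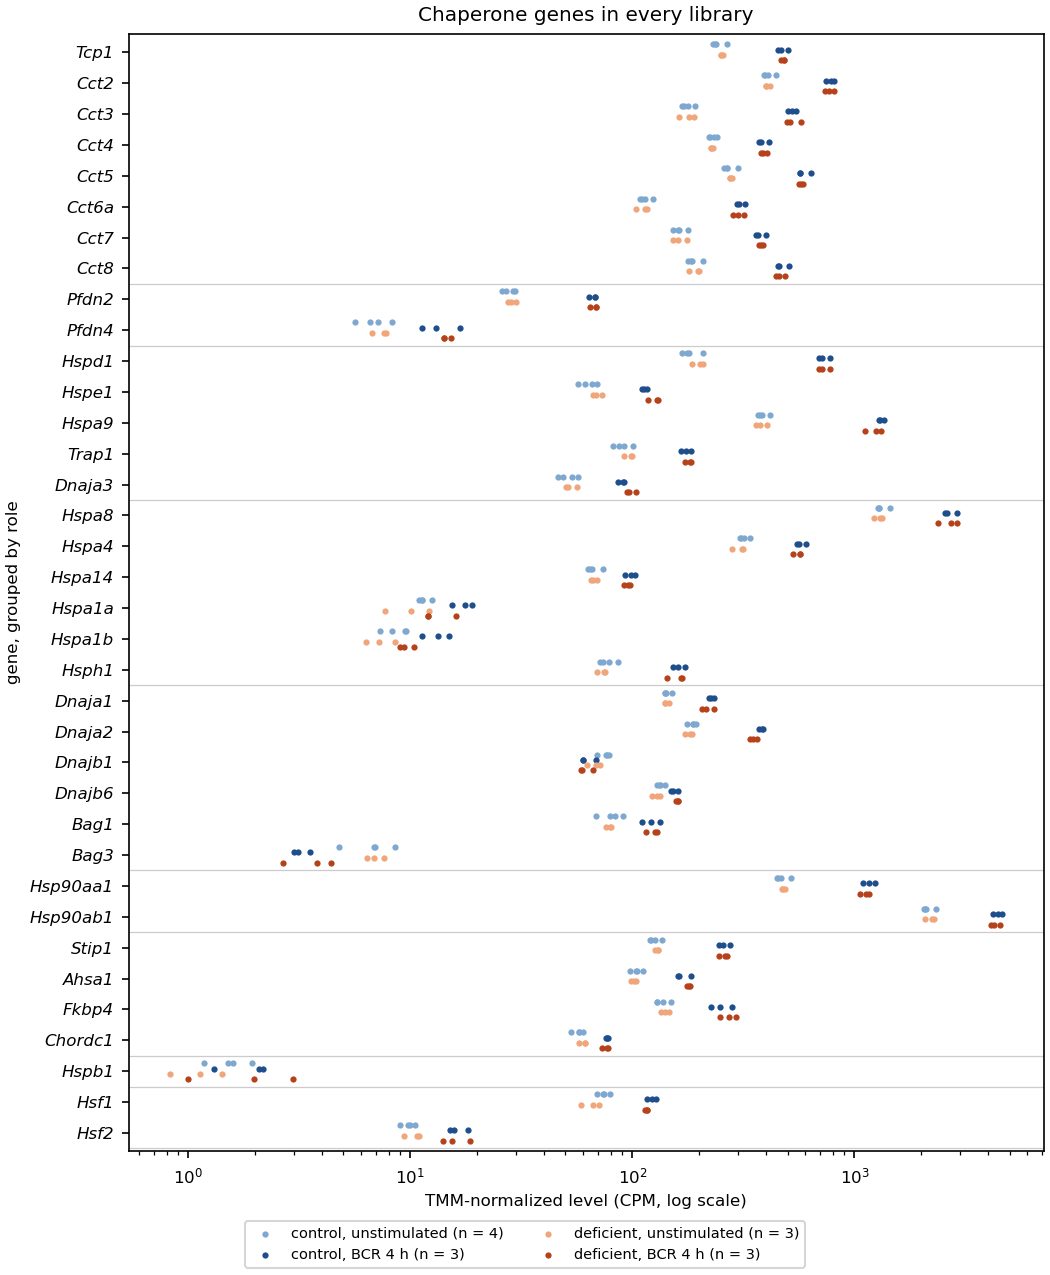
Level of each of the 36 genes in every library, in TMM-normalized CPM on a log axis, with 1 point per library and the 4 groups in 4 colours. The stimulated points lie to the right of the unstimulated points for most rows, Bag3 and Dnajb1 run the other way, and Hspb1 overlaps near the lower end of the axis.

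**Figure D2:**
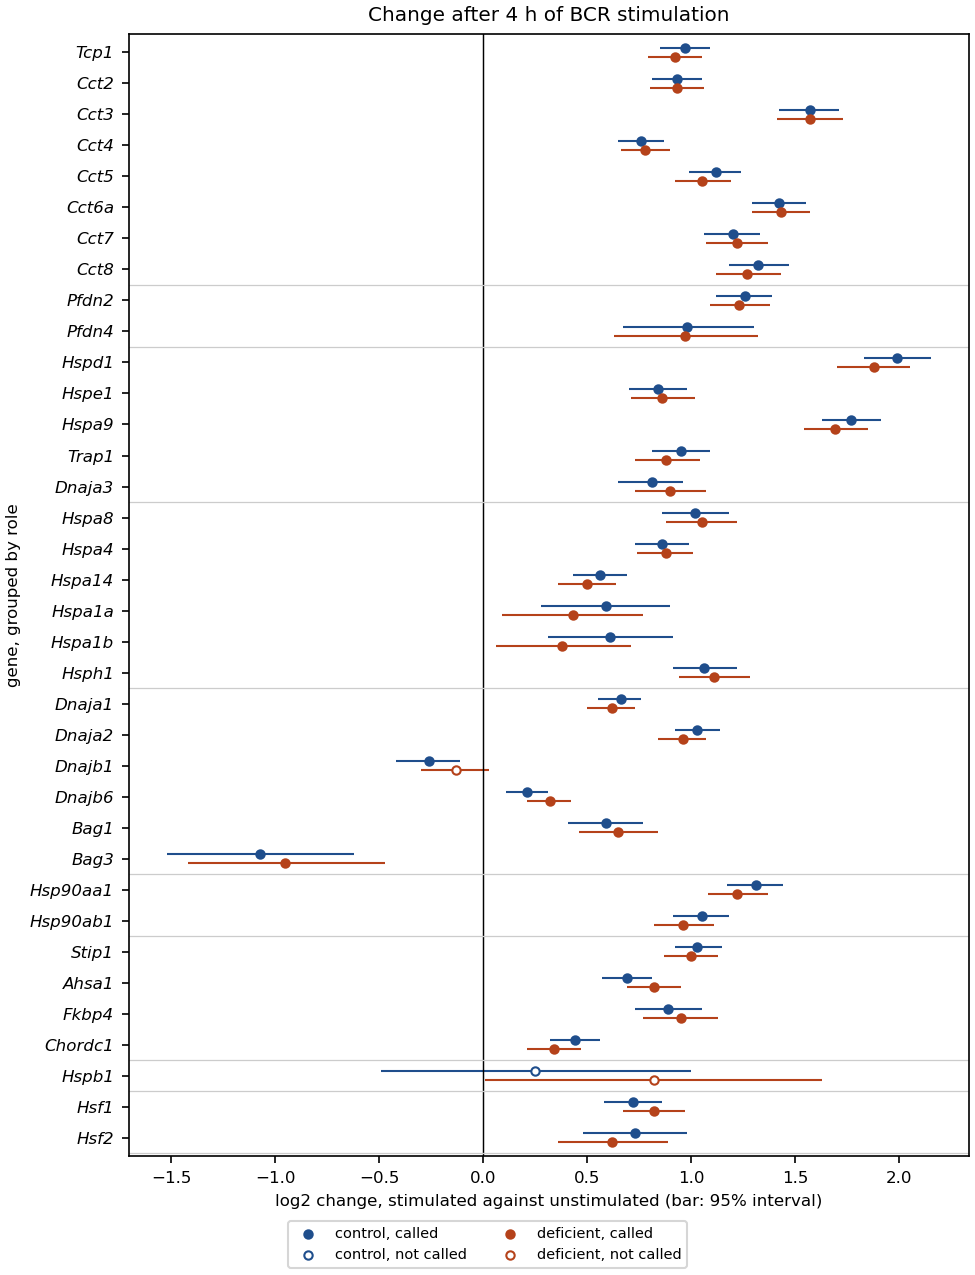
Log2 change after 4 h of BCR stimulation in control and deficient cells, with 95% intervals from the edgeR fit, filled where called and open where not. Hspd1 (1.99 and 1.88) and Hspa9 (1.77 and 1.69) lie farthest right, Bag3 (-1.07 and -0.95) farthest left, and the genotypes' intervals overlap in every row.

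The CCT ring (TRiC), a double ring of 8 different subunits that folds actin and tubulin, rose in full. All 8 subunit genes rose in each genotype, with a median log2 change of 1.16 in control and 1.14 in deficient cells. Cct3 was present at 171, 191, 178 and 167 CPM in control unstimulated and 523, 546 and 502 CPM in control stimulated libraries, and at 163, 189 and 180 and then 497, 511 and 576 CPM in deficient cells. Its change of 2.97-fold in control cells (log2 1.57 ± 0.07 SE, edgeR adjusted p = 2.4e-11) was the largest of the ring, and it was 2.98-fold in deficient cells. Cct6a followed, at 111, 124, 114 and 108 CPM before and 296, 321 and 303 CPM after stimulation in control cells, and at 104, 114 and 117 and then 285, 299 and 319 CPM in deficient cells. No library of either gene in the unstimulated groups reached the stimulated range.

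Rises were unequal within the ring. Cct4, listed here because it changed least, went from 234, 240, 224 and 221 to 372, 414 and 381 CPM in control cells, 1.69-fold (log2 0.76 ± 0.05 SE, edgeR adjusted p = 2.9e-09), and from 225, 231 and 225 to 381, 386 and 402 CPM in deficient cells. Tcp1 and Cct2 changed 1.96-fold and 1.90-fold in control cells, and Cct5, Cct7 and Cct8 changed 2.17-fold, 2.30-fold and 2.50-fold. The count ratio of Cct3 to Cct4 within a library was 0.768 ± 0.0312 (SD, n = 4) in control unstimulated and 1.35 ± 0.0497 (n = 3) in control stimulated cells, and 0.780 ± 0.0493 (n = 3) and 1.35 ± 0.0680 (n = 3) in deficient cells. The pair was taken as the extremes of the ring, so the ratio is a description without a test. Exons of Tcp1 overlap genes on the other strand, Acat3 over 571 bases and Mrpl18 over 141. So do those of Cct6a (Psph, 452 bases), Cct7 (Pradc1, 214 bases) and Cct8 (Usp16, 192 bases). Reads there cannot be assigned without a stated strand setting.

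Both prefoldin subunits on the list, which hand unfolded actin and tubulin chains to the CCT ring, rose in each genotype. Pfdn2 was at 29.0, 29.6, 25.9 and 27.0 CPM in control unstimulated and 68.1, 68.0 and 63.5 CPM in control stimulated libraries, a change of 2.39-fold (log2 1.26 ± 0.06 SE, edgeR adjusted p = 8.4e-11). Deficient cells held 27.6, 29.8 and 28.5 and then 68.6, 64.7 and 68.7 CPM. Pfdn4 was scarcer, at 6.60, 8.32, 5.63 and 7.13 CPM before and 11.3, 16.7 and 13.1 CPM after stimulation in control cells, and at 7.81, 7.62 and 6.75 and then 14.2, 14.2 and 15.3 CPM in deficient cells. All stimulated libraries of both genes lay above all unstimulated ones. Pfdn2 shares 535 exonic bases with Klhdc9 and Pfdn4 shares 639 with the antisense gene Gm16796, each on the other strand.

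Among the 5 mitochondrial chaperones, all of which rose in both genotypes, were the largest rises of the set. Hspd1, which encodes HSP60, the folding chamber of the mitochondrial matrix, stood at 167, 208, 180 and 176 CPM in control unstimulated and 711, 777 and 696 CPM in control stimulated libraries. Deficient cells held 186, 207 and 201 CPM and then 691, 717 and 776 CPM. The change was 3.98-fold in control cells (log2 1.99 ± 0.08 SE, edgeR adjusted p = 7.0e-12) and 3.68-fold in deficient cells (1.88 ± 0.08, edgeR adjusted p = 4.5e-11). Hspa9, the matrix HSP70 (mortalin) that also pulls proteins through the import channel, went from 369, 416, 382 and 377 to 1306, 1361 and 1285 CPM in control cells and from 359, 404 and 377 to 1114, 1251 and 1312 CPM in deficient cells. Its change was 3.41-fold and 3.23-fold (edgeR adjusted p = 6.6e-12 and 3.8e-11). For both genes the lowest stimulated library held more than the highest unstimulated library by a wide margin.

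Hspe1, for HSP10, the lid of the HSP60 chamber, rose less than its partner. Its levels were 65.9, 69.1, 57.1 and 61.0 CPM before and 111, 116 and 113 CPM after stimulation in control cells, and 68.3, 72.9 and 66.5 and then 129, 118 and 131 CPM in deficient cells. The change was 1.79-fold in control (log2 0.84 ± 0.07 SE, edgeR adjusted p = 1.6e-08) and 1.82-fold in deficient cells (0.86 ± 0.07, edgeR adjusted p = 3.5e-08). Both genes are transcribed away from each other on chromosome 1, and RefSeq places 1 Hspd1 start site 95 bases inside Hspe1 and the other 216 bases before the Hspe1 start site. The printed run of repeats lies in the Hspe1 window and, read from the other strand, in the window of the second Hspd1 start site.

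The count ratio of Hspd1 to Hspe1 within a library was 2.53, 3.01, 3.16 and 2.88 in control unstimulated and 6.40, 6.69 and 6.17 in control stimulated libraries. It was 2.73, 2.83 and 3.03 in deficient unstimulated and 5.36, 6.07 and 5.93 in deficient stimulated libraries. The stimulated ratios all exceeded the unstimulated ones, and the stimulated genotypes did not overlap, at means of 6.42 ± 0.257 and 5.79 ± 0.374 (SD, n = 3 each). The pair was singled out after its values were seen and is given without a test. Of 50-base words in the longest transcripts, 44.8% of those of Hspd1 and 44.8% of those of Hspe1 also occur in other annotated genes, mainly processed copies, and 112 exonic bases of the pair overlap on opposite strands, so their levels depend on how the authors counted such reads, which the sources used here do not state.

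**Figure D3:**
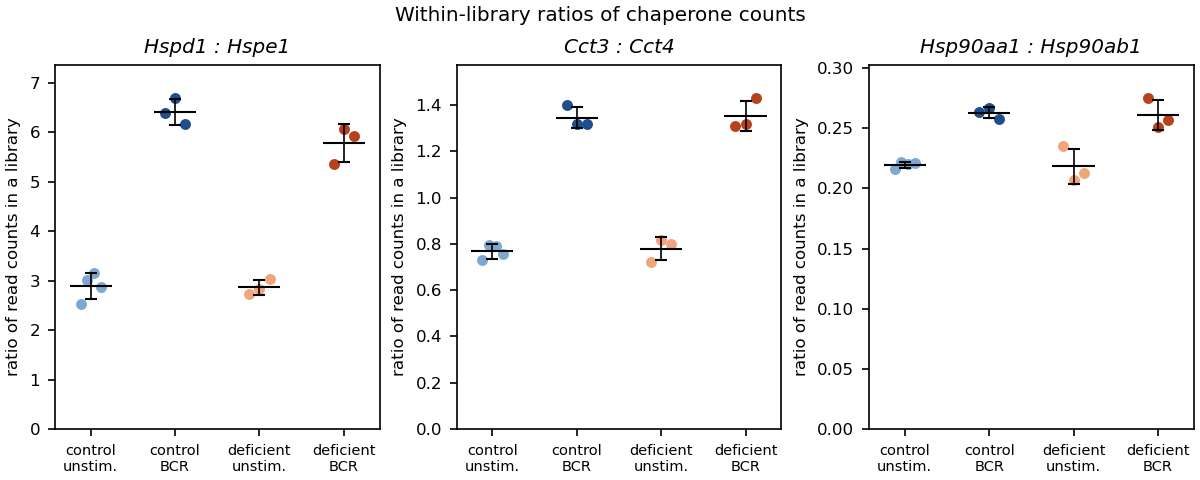
Ratio of read counts within each library for Hspd1 to Hspe1, Cct3 to Cct4 and Hsp90aa1 to Hsp90ab1, with 1 point per library, the group mean as a line and the SD as a bar, on axes that start at 0. All ratios are higher in stimulated libraries, where Hspd1 to Hspe1 reads 5.36 to 6.69 against 2.53 to 3.16 unstimulated.

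Trap1, the HSP90 of mitochondria, and Dnaja3, a mitochondrial J-protein that partners Hspa9, changed by 1.93-fold and 1.75-fold in control and 1.84-fold and 1.87-fold in deficient cells. Trap1 lay at 81.8 to 101 CPM in all 7 unstimulated and at 166 to 183 CPM in all 6 stimulated libraries. Dnaja3 lay at 46.5 to 57.2 and at 86.6 to 104 CPM. Exons of Dnaja3 overlap those of Coro7 on the other strand and of Vasn on the same strand, over 153 and 160 bases.

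All 6 cytosolic HSP70 and HSP110 genes rose in each genotype. Hsph1, an HSP110 that serves as exchange factor for HSP70, was at 78.6, 86.4, 71.4 and 73.9 CPM in control unstimulated and 161, 172 and 152 CPM in control stimulated libraries, 2.09-fold (log2 1.06 ± 0.07 SE, edgeR adjusted p = 3.2e-09). Levels in deficient cells were 69.6, 74.8 and 75.7 and then 167, 143 and 165 CPM. Hspa8, the constitutive HSC70, was at 1274, 1449, 1288 and 1287 CPM before and 2601, 2903 and 2559 CPM after stimulation in control cells, and at 1306, 1326 and 1230 and then 2904, 2382 and 2723 CPM in deficient cells. Its change was 2.03-fold and 2.07-fold (edgeR adjusted p = 5.4e-09 and 1.2e-08), and no stimulated library reached down to the unstimulated range. Hspa8 shares 74.8% of its 50-base words with other annotated genes, mainly the copy Gm15459. Hspa4, a second HSP110, and Hspa14, an HSP70 bound to ribosomes, changed by 1.81-fold and 1.47-fold in control cells and by 1.83-fold and 1.42-fold in deficient cells.

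The near-identical genes Hspa1a and Hspa1b encode HSP70, the strongly heat-inducible form, and stayed scarce. Hspa1a was at 11.3, 12.5, 11.0 and 11.3 CPM in control unstimulated and 17.7, 18.9 and 15.4 CPM in control stimulated libraries, and at 7.70, 10.1 and 12.1 and then 12, 12 and 16.1 CPM in deficient cells. Hspa1b was at 9.44, 9.60, 8.27 and 7.29 and then 13.4, 14.9 and 11.3 CPM in control cells, and at 6.34, 7.23 and 8.52 and then 10.4, 9.40 and 8.99 CPM in deficient cells. The groups were apart in control cells for both genes, while in deficient cells the highest unstimulated Hspa1a library lay just above the lowest stimulated ones. The changes were 1.5-fold and 1.53-fold in control cells (edgeR adjusted p = 0.0024 and 0.00139) and 1.35-fold and 1.30-fold in deficient cells (edgeR adjusted p = 0.0295 and 0.0436). Without deficient unstimulated library 1, 2 or stimulated library 3 the deficient Hspa1a call was lost (edgeR adjusted p = 0.14, 0.0568 and 0.17), and that of Hspa1b was lost without any 1 of 7 libraries (edgeR adjusted p from 0.051 to 0.162), namely deficient unstimulated 1 and 2, deficient stimulated 1, 2 and 3, control unstimulated 3 and control stimulated 1. Of the 50-base words of Hspa1a 58.8% occur in Hspa1b, which shares 62.3% of its own, and their windows agree at 296 of 300 bases, so the split of reads between them is uncertain.

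The count ratio of Hspa1a to Hspa8 was 0.00871 ± 0.000147 (SD, n = 4) in control unstimulated and 0.00644 ± 0.000393 (n = 3) in control stimulated cells, and 0.00776 ± 0.00195 (n = 3) and 0.00503 ± 0.000887 (n = 3) in deficient cells. The ratio covers Hspa1a alone and is given without a test.

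The J-proteins and BAG exchange factors, which start and end the HSP70 cycle, held both falls of the set. Dnaja1, Dnaja2, Dnajb6 and Bag1 rose in each genotype. Dnaja2, the member of this role with the largest rise, was at 187, 194, 176 and 188 CPM in control unstimulated and 370, 385 and 386 CPM in control stimulated libraries, 2.04-fold (log2 1.03 ± 0.05 SE, edgeR adjusted p = 7.3e-11). Levels in deficient cells were 173, 182 and 186 and then 337, 349 and 363 CPM, 1.94-fold. Dnaja1 changed by 1.58-fold and 1.53-fold, Bag1, which releases nucleotide from HSP70, by 1.5-fold and 1.57-fold, and Dnajb6, known for suppressing aggregation, by 1.15-fold and 1.24-fold. Dnajb6 shares 42.8% of its 50-base words with other annotated genes and Dnaja1 shares 28.8%. Exons of Dnaja1 overlap those of Smu1 over 608 bases, and exons of Dnajb6 those of Gm5129 over 249 bases, each on the other strand.

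Bag3, the exchange factor that works with small heat shock proteins in selective autophagy, fell in each genotype. It was at 6.86, 4.78, 8.55 and 6.93 CPM in control unstimulated and 2.99, 3.14 and 3.53 CPM in control stimulated libraries (log2 -1.07 ± 0.21 SE, edgeR adjusted p = 3.5e-04). In deficient cells it was at 7.62, 6.87 and 6.39 and then 4.42, 2.67 and 3.79 CPM (log2 -0.95 ± 0.22, edgeR adjusted p = 0.00164). These levels rest on 85 to 275 counts per library. All 6 stimulated libraries lay below all 7 unstimulated ones, and over all alternatives the log2 change stayed between -1.21 and -0.72 in control and between -1.08 and -0.69 in deficient cells.

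Dnajb1, the HSP40 that pairs with inducible HSP70, was at 78.6, 76.4, 69.4 and 77.0 CPM in control unstimulated and 59.8, 68.8 and 60.1 CPM in control stimulated libraries. It fell by 0.26 on the log2 scale (± 0.07 SE, edgeR adjusted p = 0.00552), beside the all-gene median of -0.13. In deficient cells it was at 71.6, 62.5 and 68.7 and then 66.5, 59.0 and 59.5 CPM, which overlap, with a log2 change of -0.13 ± 0.08 that was not called (edgeR adjusted p = 0.16). The difference between these responses was 0.13 ± 0.11 and was not called either (edgeR adjusted p = 1). The Dnajb1 promoter window held neither paired repeat, and that of Bag3 held 1, 42 bases after the start site.

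**Figure D4:**
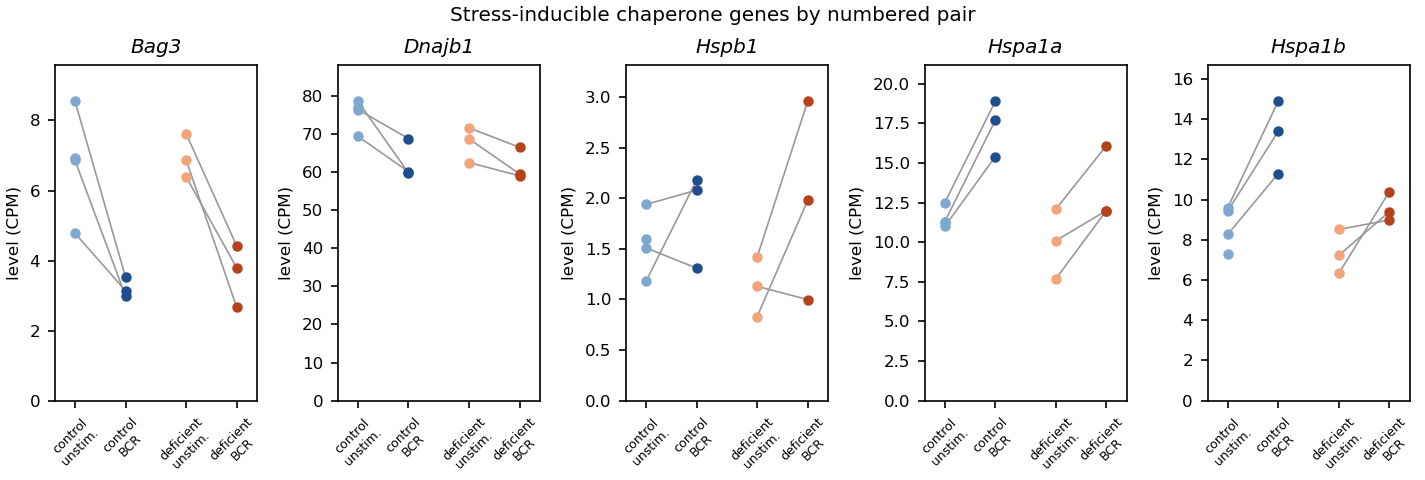
Levels in CPM of Bag3, Dnajb1, Hspb1, Hspa1a and Hspa1b in every library, with grey lines joining the unstimulated and stimulated libraries of the same genotype and number (control library 4 has no partner). Bag3 and Dnajb1 go down and Hspa1a and Hspa1b go up in all 6 pairs, and Hspb1 goes up in 4 pairs and down in 2.

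The cytosolic HSP90 genes rose in both genotypes. Hsp90ab1, the constitutive form, was at 2068, 2336, 2061 and 2104 CPM in control unstimulated and 4418, 4625 and 4223 CPM in control stimulated libraries, 2.06-fold (log2 1.05 ± 0.06 SE, edgeR adjusted p = 5.7e-10). The deficient libraries read 2081, 2285 and 2231 and then 4103, 4229 and 4527 CPM, 1.95-fold. Hsp90aa1, the inducible form, was at 446, 518, 453 and 466 and then 1164, 1235 and 1091 CPM in control cells, 2.47-fold, and at 489, 473 and 476 and then 1127, 1061 and 1163 CPM in deficient cells, 2.33-fold. Neither gene had overlapping groups in either genotype.

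The count ratio of Hsp90aa1 to Hsp90ab1 was 0.220 ± 0.00278 (SD, n = 4) in control unstimulated and 0.263 ± 0.00428 (n = 3) in control stimulated cells, and 0.218 ± 0.0147 (n = 3) and 0.261 ± 0.0123 (n = 3) in deficient cells. Hsp90aa1 shares 58.5% of its 50-base words with other annotated genes, mainly Gm12346. Per kilobase of the longest transcript, Hsp90ab1 was the most abundant member in each group, at 850 CPM per kilobase in control unstimulated and 1755 in control stimulated cells, and Hspa8 was the second, at 553 and 1123. The order of these levels was the same per kilobase of the union of exons.

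All 4 HSP90 co-chaperones rose in each genotype. Stip1 (HOP), the adaptor that joins HSP70 to HSP90, was at 126, 136, 120 and 121 CPM in control unstimulated and 255, 274 and 245 CPM in control stimulated libraries, 2.05-fold (log2 1.03 ± 0.06 SE, edgeR adjusted p = 2.0e-10). The deficient libraries read 130, 127 and 130 and then 262, 245 and 266 CPM. Fkbp4 (FKBP52), a prolyl isomerase of steroid receptor complexes, was at 137, 149, 129 and 129 and then 247, 281 and 227 CPM in control cells, 1.85-fold, and at 135, 146 and 140 and then 273, 247 and 294 CPM in deficient cells. Stimulated and unstimulated libraries of both genes were apart in each genotype. Ahsa1 (AHA1), which speeds the HSP90 ATPase, changed by 1.61-fold and 1.76-fold, and Chordc1, an HSP90 partner whose window holds the run of 3 units, by 1.36-fold and 1.26-fold.

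Hspb1, the small heat shock protein HSP27 that holds unfolded proteins without ATP, was near the lower end of what was measured, on 24 to 94 counts per library. It was at 1.18, 1.94, 1.51 and 1.60 CPM in control unstimulated and 2.18, 2.08 and 1.31 CPM in control stimulated libraries. In deficient cells it was at 0.831, 1.42 and 1.13 and then 1.98, 2.96 and 0.999 CPM. All groups overlapped, and the log2 changes of 0.25 ± 0.35 (SE, edgeR adjusted p = 0.553) and 0.82 ± 0.38 (edgeR adjusted p = 0.0779) were not called. Leaving out the third deficient stimulated library gave a log2 change of 1.14 in deficient cells, which was called (edgeR adjusted p = 0.0129). Hspb1 shares 51.6% of its 50-base words with the copy Hsp25-ps1.

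Hsf1, the main activator of heat shock genes, was at 73.9, 79.3, 74.3 and 69.6 CPM in control unstimulated and 122, 128 and 116 CPM in control stimulated libraries, 1.65-fold (log2 0.72 ± 0.06 SE, edgeR adjusted p = 8.3e-08). Among deficient libraries it was at 58.8, 70.7 and 66.7 and then 114, 116 and 116 CPM, 1.77-fold. Hsf2, its relative with roles in development, was at 9.03, 10.5, 9.78 and 10 and then 15.7, 15.1 and 18.2 CPM in control cells, 1.66-fold, and at 10.9, 10.7 and 9.42 and then 18.6, 14.0 and 15.5 CPM in deficient cells, 1.54-fold. Both rose in each genotype with no overlap between states. Transcript levels do not report HSF1 activity, which is controlled after translation.

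Marker sums were compared between the states. Levels of 14 tissue-handling stress genes, immediate early genes that cell isolation and BCR signals both induce, summed to 2740 to 3083 CPM in control unstimulated and 3857 to 4073 CPM in control stimulated libraries, and to 2162 to 2597 and then 2655 to 3252 CPM in deficient cells. Directions differed within this list. In control cells Nr4a1 went from 452 to 567 up to 1845 to 2046 CPM, and Btg2 from 432 to 496 down to 140 to 160 CPM. The 5 plasma cell markers present of 7 summed to 136 to 148 and then 99.7 to 108 CPM in control cells. In deficient cells they summed to 121 to 141 and then 88.9 to 113 CPM. The sums did not overlap in either genotype. These markers did not move together. Sdc1 was lower without overlap in both genotypes, Xbp1 and Tnfrsf17 in control cells only, and Derl3 overlapped in both. Prdm1 was higher without overlap in both. Its highest unstimulated and lowest stimulated libraries were at 17.6 and 18.9 CPM in control cells, and at 12.6 and 13.2 CPM in deficient cells. The 9 T cell markers present of 10 summed to 32.0 to 77.5 and then 62.5 to 92.1 CPM in control cells, which overlap, and to 39.3 to 56.8 and then 82.7 to 100 CPM in deficient cells, which do not. Of these markers only Lck lay apart between the states. It went from 20.6 to 28.8 up to 53.5 to 64.4 CPM in control cells, and from 28.8 to 31.4 up to 70.5 to 83.9 CPM in deficient cells. Every other T cell marker, Cd3d, Cd3e, Cd3g and Cd4 among them, overlapped between states in both genotypes. The 11 myeloid markers present of 12 summed to 166 to 463 and then 90.9 to 187 CPM in control cells, and to 147 to 513 and then 80.0 to 187 CPM in deficient cells, with overlap in both. Sums of the 9 neutrophil markers present of 10 (16.7 to 294 CPM over all libraries) and of the 6 NK cell markers (4.79 to 31.9 CPM) also overlapped between states. The part of these in the chaperone changes was not tested. Without both libraries of deficient number 1, 32 of 36 genes rose and 1 fell in deficient cells.

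No member of the set passed the threshold between the genotypes. Unstimulated, 0 of 36 genes differed between genotypes in edgeR, DESeq2 or limma, and 2 had an unadjusted edgeR p under 0.05 (Dnajb1 and Hsf1). Of all genes, edgeR called 0.324% (17 higher and 27 lower, or 21 and 20 when run with DESeq2's size factors). The DESeq2 test called more, 64 higher and 96 lower. Stimulated, 0 of 36 differed in each of the 3 tools, where 2.01% of all genes did in edgeR, and 4 had an unadjusted p under 0.05 (Hspe1, Hspa1a, Hspa1b and Dnaja2). The smallest edgeR adjusted p was 0.412 for Hsf1 unstimulated and 0.185 for Hspa1b stimulated. With so few genes called in the whole table, a count of 0 is near the background and is not a result about the set, and a p that misses the threshold does not show that the genotypes were alike.

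The intervals bound how far the genotypes could differ. Unstimulated, the 95% interval of the log2 difference lay within 0.25 of zero for 26 of 36 genes and within 0.5 for 33. Stimulated, it lay within 0.25 for 26 and within 0.5 for 32. All 8 CCT subunits were in the narrow class in both states, with differences of -0.03 to 0.05 unstimulated and -0.04 to 0.02 stimulated. Hspb1 was the least certain, with half-widths of 0.77 and 0.79.

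Hspa1b came nearest to a call. Its stimulated levels, 13.4, 14.9 and 11.3 CPM for the controls against 10.4, 9.40 and 8.99 CPM for the deficient libraries, did not overlap, a log2 difference of -0.46 ± 0.15 (SE, edgeR adjusted p = 0.185), and over all alternatives its edgeR, DESeq2 or limma adjusted p ran from 0.0577 (DESeq2) to 0.474. Hspa1a differed by -0.38 ± 0.16 in the same state (edgeR adjusted p = 0.336) with overlap, and unstimulated the differences were -0.22 ± 0.15 for Hspa1a and -0.24 ± 0.14 for Hspa1b (edgeR adjusted p = 0.747 and 0.71). Summed tissue-handling genes lay lower in all deficient stimulated than in all control stimulated libraries (2655 to 3252 against 3857 to 4073 CPM). The sums were also apart unstimulated (2162 to 2597 against 2740 to 3083 CPM). Nr4a1 was the largest part of the stimulated sums, at 1215 to 1670 CPM in deficient and 1845 to 2046 CPM in control cells. Atf3 of the same list was higher in deficient stimulated libraries (35.9 to 43.1 against 28.1 to 34.8 CPM). The part of these genes in the Hspa1b values was not tested. Hspe1, Dnaja3 and Dnaja2 were the other genes without overlap between stimulated genotypes, the former pair higher and Dnaja2 lower in deficient cells, so that 4 of 36 genes (17.8% of all genes) were apart there and 0 of 36 (8.72% of all genes) unstimulated.

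Stimulation responses did not differ between genotypes past the threshold for any of the 36 genes in edgeR, DESeq2 or limma, where 0.00737% of all genes did in edgeR, and 0 had an unadjusted p under 0.05. Differences ran from -0.23 ± 0.21 for Hspa1b to 0.57 ± 0.52 for Hspb1 on the log2 scale (SE, edgeR adjusted p = 1 for both). The 95% interval of the difference lay within 0.25 of zero for 14 genes, within 0.5 for 32 and within 1 for 35. These intervals come from the main fit, which does not use the pairing of same-numbered libraries. Across the 36 genes the log2 changes of the genotypes, which share no library, had a Pearson r of 0.973, beside 0.901 across all 13574 genes; genes are not independent replicates and no p is given.

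**Figure D5:**
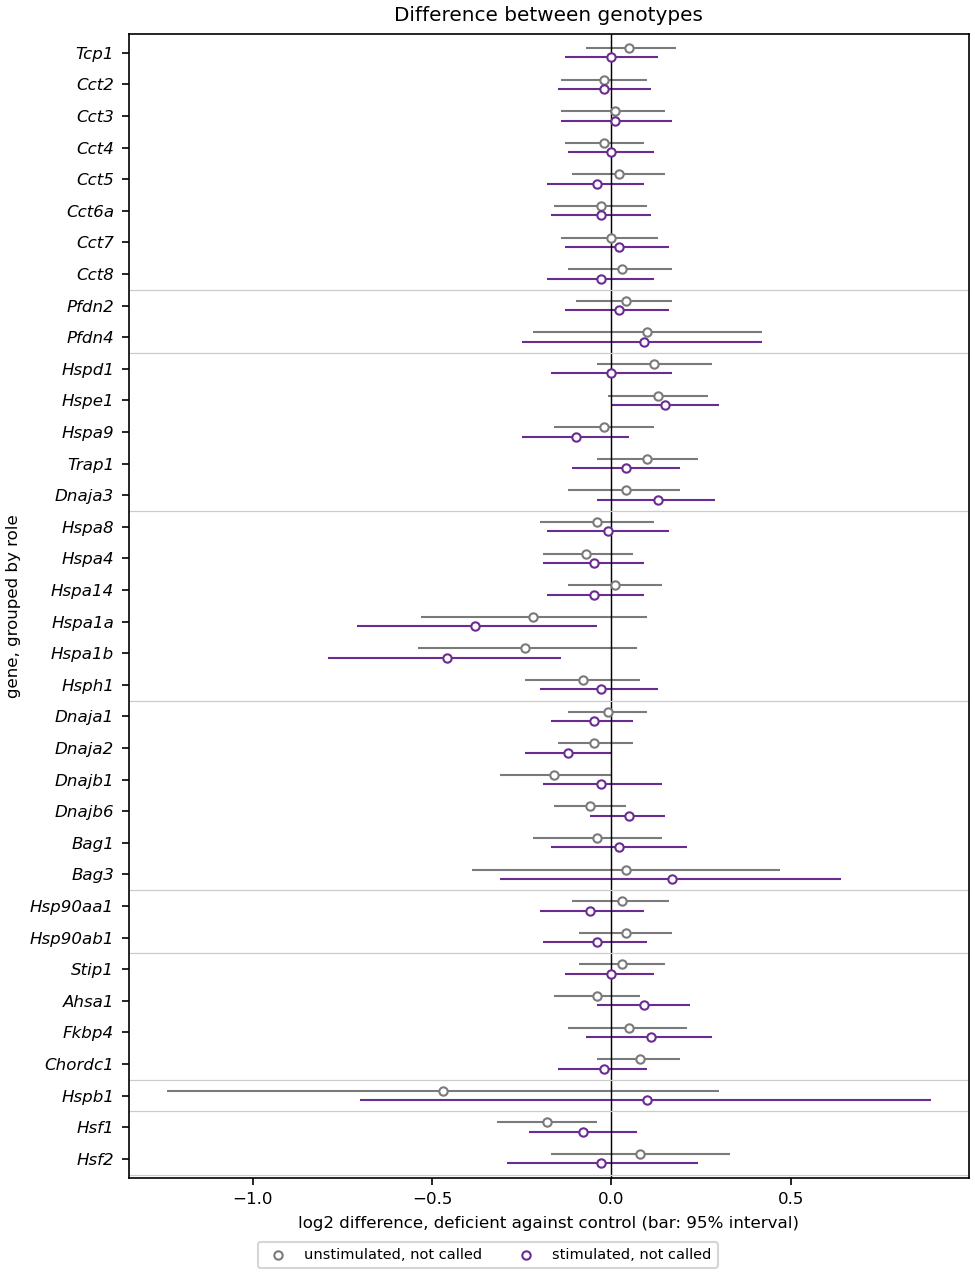
Log2 difference of deficient against control cells for each of the 36 genes, unstimulated and stimulated, with 95% intervals from the edgeR fit, all open since none was called. The points of the CCT rows lie between -0.04 and 0.05, and Hspa1a and Hspa1b lie farthest left after stimulation, at -0.38 and -0.46.

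Other genes of the chaperone network outside the endoplasmic reticulum moved in both directions. Of 75 listed, 72 had a row and 69 passed the filter. In control cells 32 rose, 20 fell and 17 were not called, with a median log2 change of 0.16, where 28.5% of all genes rose and 31.8% fell. In deficient cells 34 rose, 14 fell and 21 were not called, with a median of 0.22, where 28.3% and 29.6% of all genes did. Ppid (cyclophilin 40, an HSP90 co-chaperone) and St13 (HIP, which steadies HSP70 on its client) led the rises in both genotypes, by 3.10-fold and 2.64-fold in control and 2.92-fold and 2.53-fold in deficient cells. Ppid was at 44.2 to 52.5 CPM in control unstimulated and at 137 to 153 CPM in control stimulated libraries, and St13 at 118 to 135 and 311 to 339 CPM.

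Also among the largest rises were Dnajc11, a J-protein linked to mitochondrial cristae, and Pdrg1 in control cells (2.39-fold and 2.38-fold), and Nudc, an HSP90 co-chaperone, and Dnajc15 in deficient cells (2.37-fold and 2.23-fold). Among called genes, the largest falls in control cells were those of Hspa12a, Dnajc28, Hspb6 and Dnajc9, and in deficient cells those of Dnajc28, Hspb6, Dnajc18 and Dnajc9. Dnajc9, a histone chaperone as well as a J-protein, was at 85.5 to 98.6 CPM in control unstimulated and 48.0 to 50.2 CPM in control stimulated libraries. Dnajc28 went from 4.57 to 6.16 CPM down to 1.30 to 1.64 CPM, and Hspb6, a small heat shock protein, from 4.99 to 5.61 CPM down to 1.62 to 3.38 CPM. Hspa12a was scarce throughout, at 0.332 to 0.866 and then 0 to 0.227 CPM in control cells, and its log2 change of -1.65 ± 0.70 in deficient cells was not called (edgeR adjusted p = 0.0557).

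Lonp1, the matrix protease that also acts as a chaperone, was the single gene called between genotypes among the 69 tested of this second list, where 2.01% of all genes were called between stimulated genotypes, so the count is near the background. It was at 225, 245 and 207 CPM in control stimulated and 181, 191 and 187 CPM in deficient stimulated libraries, which do not overlap, a log2 difference of -0.28 ± 0.06 (SE, edgeR adjusted p = 0.0367). Unstimulated levels of 90.0 to 101 CPM in control and 88.5 to 96.2 CPM in deficient cells overlapped, and the difference of the responses was not called (-0.21 ± 0.09, edgeR adjusted p = 1). Like Hspd1 and Hspa9, Lonp1 rose after stimulation in both genotypes, by 2.33-fold and 2.01-fold.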

How the data were processed

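The authors' deposited values for the 13 libraries are counts of reads by gene symbol and, beside them, log2 values. TopHat, HTSeq, DESeq2 and mm10 are listed in the submitters' processing notes, without roles or versions. The sources used here do not state the annotation, the strand setting or the rule for reads with several matches. RNA was isolated with TRIzol and a clean-up kit, per the labels' protocols.

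The main test was edgeR 4.0.16 (under R 4.3.3). Genes were kept by filterByExpr (minimum count 10), scaled with TMM and fitted by robust quasi-likelihood, 1 mean for each of the 4 groups, with 9 residual degrees of freedom. A call is a Benjamini-Hochberg adjusted p under 0.05 over 13574 genes. The fit was also run on simulated counts with a common spread for all genes and no pairing or sex effect. Only its median estimates were checked against the differences put in, so error rates in these libraries were not checked. No pair of libraries within a group agreed within sampling noise. Gene overlaps and shared 50-base words come from GENCODE vM21.

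The members and lists were chosen with earlier results of these data known. By rule, every library is given for the 2 genes of each role that changed most in control cells and for genes called between genotypes, and the 4 largest rises and falls of the other network genes are named; Cct4, Hspe1, Hspa1a, Hspa1b and Dnajb1 were added after their values were seen.

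Same-numbered libraries of a genotype deviated together (r = 0.73, 0.49 and 0.57 for the controls, 0.83, 0.76 and 0.62 for the deficient libraries, over 9658 genes), so the numbers pair the states. The alternatives were DESeq2's size factors, upper-quartile factors, DESeq2 1.42.0, other filters, the compared groups alone, replicate blocks, a term for sex, limma 3.58.1 with the deposited log2 values, and libraries left out.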

Additional observations from a re-analysis of the deposited data

Results flagged for a closer look

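Control unstimulated library 2 was flagged against the other 3 controls for a pair of members. Hspa8 read 1449 CPM there against 1274 to 1288 CPM, and Hsp90ab1 read 2336 CPM against 2061 to 2104 CPM, by Dixon's test at 95%. Chance flags about 1 in 20 groups, and 36 genes were looked at in the 1 group of 4 libraries. A pair of flags is therefore near what chance gives and is not read as a result about these members. The same library held the highest level of 34 of the 36 genes, and the share of all genes highest there was not computed.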

How the results depend on the processing

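In control cells, 33 genes rose and 2 fell after stimulation under every alternative run. In deficient cells 32 to 34 of 36 were called against 34, the range of leaving out 1 library being the same 32 to 34. No member was called between genotypes in either state, or for the difference of responses, under any alternative; the smallest adjusted p were 0.14 unstimulated (sex as a term), 0.0577 stimulated (DESeq2) and 0.545 for the difference (replicate block by animal). Over all results 4193 values kept their side of the threshold, 17 lost a call and 2 gained one. No value that was called in the main fit or in the alternative changed direction. Values called in neither were not held to a direction, and some changed sign, such as Hspb1 between stimulated genotypes (log2 difference from -0.32 to 0.41). All 17 losses were Hspa1a (5) or Hspa1b (12) after stimulation of deficient cells, among them the compared groups alone (adjusted p = 0.094 and 0.0773). The gains were Dnajb1 in deficient cells with upper-quartile factors (-0.23, adjusted p = 0.0221) and Hspb1 in deficient cells without deficient stimulated library 3 (1.14, adjusted p = 0.0129). The cause was not tested.

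The replicate block by animal, which pairs the states within a genotype, called 33 rises and 2 falls in control, 33 and 1 in deficient cells and 0 for the difference of responses, while all-gene calls for that difference went from 1 to 48 higher and 20 lower. The replicate block by number across genotypes called 32 rises and 1 fall in deficient cells, where Hspa1b was lost (adjusted p = 0.0534), and changed no other call of a member. All-gene genotype calls moved widely, from 44 unstimulated and 273 stimulated to 64 higher and 96 lower, and 172 and 367, with DESeq2, and to 45 and 153, and 158 and 353, with sex as a term. Leaving out 1 library lowered them as far as 8 and 9 unstimulated (without deficient unstimulated 2) and 50 and 79 stimulated (without control stimulated 1). The all-gene median after stimulation of control cells was -0.13, -0.06 with DESeq2's size factors and -0.20 with upper-quartile factors, and no member turned sign. Depth limits Hspb1, on 24 to 94 counts per library, and Bag3, on 85 to 275.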
